A study of Mus musculus with 6 samples.

Results

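The 10 genes described here encode the core of the insulin-like growth factor (IGF) system, namely the ligands (*Igf1* and *Igf2*), their receptors (*Igf1r* and *Igf2r*) and 6 binding proteins (*Igfbp2* to *Igfbp7*). They were picked by gene name from a table of read counts for 41721 genes, with earlier results of these data known. *Igfbp1* was not among them and is described separately. All 10 were among the 14085 genes with enough counts to be tested. The table comes from mouse aortic smooth muscle cells (MASMCs) in which *Pdk4* had or had not been deleted. *Pdk4* encodes a kinase that switches off the pyruvate dehydrogenase complex and so limits the entry of pyruvate into the TCA cycle.

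IGF1 and IGF2 are secreted growth factors that act through IGF1R, a receptor tyrosine kinase whose signal runs through IRS proteins to the PI3K-AKT-MTOR arm and through adaptors to the RAS-ERK arm. IGF2R carries IGF2 to lysosomes for breakdown, and the binding proteins hold the ligands outside the cell until proteases such as PAPP-A release them. In the vessel wall, IGF1 is known as a growth and survival factor of smooth muscle cells.

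Control cells (*Pdk4*fl/fl) carried loxP sites around exons 4, 5 and 6 of both *Pdk4* alleles, made in C57BL/6J zygotes, and no Cre. Knockout cells (*Pdk4*SMKO) carried the same alleles and a tamoxifen-dependent Cre transgene driven by the smooth muscle promoter of *Myh11*. Mice of both genotypes were male and were given tamoxifen for 5 days at 6 weeks of age, at a daily dose of 75 mg/kg. Aortic cells were taken at 10 weeks, grown with 10% serum, used between passages 4 and 8 and kept without serum for 48 h. All 6 libraries come from cells exposed to Ang II, at 1 μM and for a time of 48 h, so the effect of Ang II itself was not measured. As only the knockout cells carried Cre, the effects of Cre and of the deletion cannot be told apart. There were 3 libraries per genotype. The study describes them as biological replicates, while the labels do not say whether each came from its own mouse, and the p-values measure the spread between these libraries.

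Between 16526044 and 22481670 reads were counted per library, and a count of 3, taken as the floor of detection, was worth 0.132 to 0.227 CPM (counts scaled to a common library size, with edgeR's TMM factors). *Pdk4* itself lay between 31.9 and 38.0 CPM in the control libraries and between 4.83 and 9.06 CPM in the knockout libraries. Log2 CPM correlated at 0.981 or more within a genotype and at 0.748 or less between genotypes, so the genotypes stood far apart over the whole table. At a log2 fold change of at least 1 and an adjusted p under 0.05 (edgeR's quasi-likelihood test, Benjamini-Hochberg over all genes tested), 32.8% of genes tested were higher and 26.5% were lower in knockout cells. This split of 4616 higher and 3733 lower genes became 6184 and 2390 when libraries were scaled by their totals alone. *Xist*, which is expressed from the inactive X chromosome of female cells, had 3, 4 and 5 counts in the control libraries but 610, 347 and 321 in the knockout libraries, although the mice were stated to be male. Genotype, sex and the origin of the cultures cannot be told apart in these 6 libraries.

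The smooth muscle label was checked against 8 markers. All counts of called markers in this paragraph stand beside 32.8% of all genes tested that were higher and 26.5% that were lower. Their summed level was 785 to 811 CPM in control and 723 to 954 CPM in knockout libraries, with 4 markers higher (*Acta2*, *Myh11*, *Des* and *Lmod1*) and 3 lower (*Tagln*, *Cnn1* and *Smtn*) in knockout cells. *Myh11*, the gene whose promoter drives Cre, was scarce in both genotypes, at 0.533 to 0.757 CPM and 2.19 to 2.72 CPM. Markers of other cells also moved. The 8 fibroblast markers summed to 122 to 148 CPM in control and 337, 659 and 597 CPM in knockout libraries 1, 2 and 3, with 5 higher and 1 lower of 8 tested. The 8 mesothelial markers summed to 74.2 to 99.99 CPM and to 1325, 723 and 829 CPM, with all 7 tested higher. Of 7 macrophage markers found, 5 of 6 tested were higher and 1 (*Cd68*) was lower, and 4 (*Adgre1*, *C1qa*, *C1qb* and *Tyrobp*) had 0 counts in every control library, while the sum was 21.4 to 38.0 CPM against 30.5, 13.5 and 9.71 CPM. The 8 endothelial markers summed to 16.0 to 24.9 CPM and 3.33 to 6.72 CPM, with 2 of 3 tested lower (*Kdr* and *Vwf*). *Kdr* had 268, 365 and 152 counts in control and 99, 42 and 50 in knockout libraries, while *Cdh5* had 0 counts in 4 libraries and *Tie1* in 5. Of the higher markers, *Myh11*, *Des*, *Lum*, *Fbln1*, *Cd34* and *Mfap5* passed the count filter only through the knockout libraries. So did *Upk3b*, *Upk1b*, *Krt18*, *Wt1*, *Lrrn4*, *Adgre1*, *C1qa*, *C1qb*, *Tyrobp* and *Csf1r*. All of these could be called only as higher. The part of other cells in the results below was not tested, and in bulk RNA fewer cells of a type cannot be told apart from less RNA per cell.

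Of the 10 IGF genes, 6 were higher in knockout cells past the threshold (against 32.8% of all genes tested), 0 were lower (26.5% of all) and 4 did not reach a 2-fold change. DESeq2 also called 0 lower, and at an unadjusted p under 0.05 in edgeR's quasi-likelihood test, with no limit on the fold change, 1 was lower (*Igf2r*). The 6 were *Igf2*, *Igfbp2*, *Igfbp3*, *Igfbp4*, *Igfbp5* and *Igfbp6*, that is 1 of 2 ligands, 0 of 2 receptors and 5 of 6 binding proteins. All 10 had an adjusted p under 0.05 at any fold change, as did 79.1% of genes tested, and 9 showed no overlap between the genotypes, as did 81.8% of genes tested. Neither of the last pair of counts sets these genes apart. The median log2 fold change was 3.00 for the 10 genes and 0.12 for all genes tested. *Igf2* and *Igfbp5* had 0 to 4 counts in each control library and passed the count filter only through the knockout libraries. *Igfbp6*, with 8, 14 and 15 counts in the control libraries, also needed the knockout libraries to pass. These genes could therefore be called only as higher, and the median of 3.00 includes them. Among the other 7 genes the median log2 fold change was 0.81, the value of *Igf1*. With at least 10 counts required in every library, which also removes *Igfbp6*, 3 of 7 tested were higher, against 3165 of 11301 genes.

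**Figure D1:**
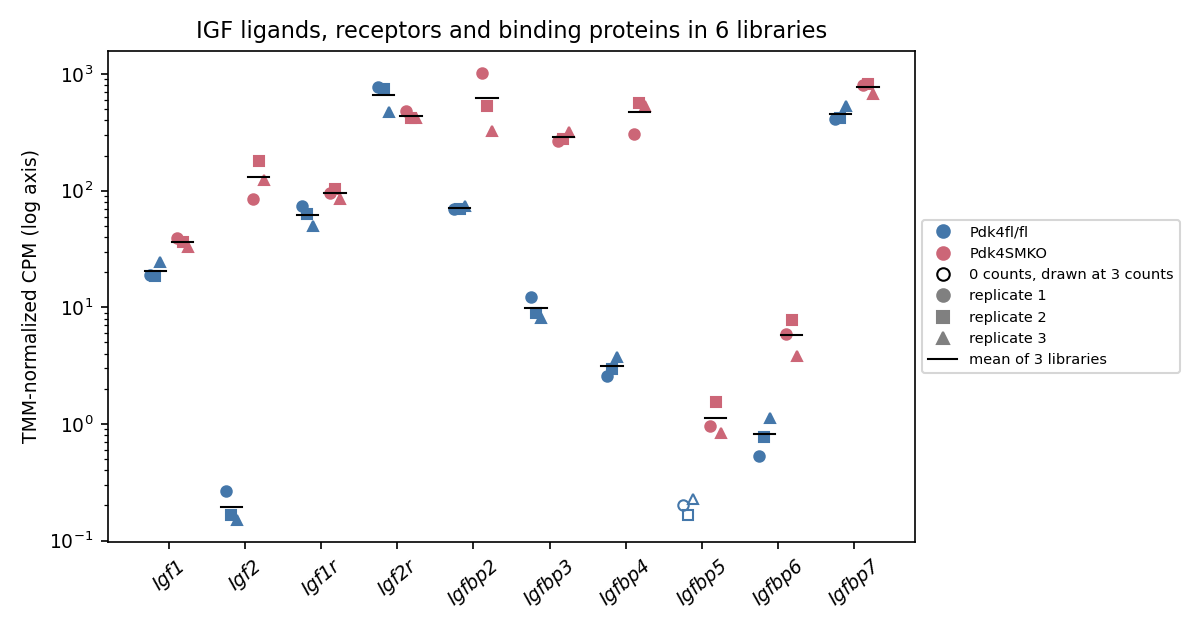
Level of each IGF gene in every library, in TMM-normalized CPM on a log axis, with control (*Pdk4*fl/fl) in blue, knockout (*Pdk4*SMKO) in red, symbols for the replicate number and a bar at the mean of 3 libraries. Open symbols mark 0 counts and are drawn at the value of 3 counts. *Igf2*, *Igfbp3* and *Igfbp4* show the widest gaps between genotypes, while the genotypes overlap for *Igf2r*.

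The promoters of *Igf2*, *Igfbp2*, *Igfbp3* and *Igfbp4* are shown because these 4 had the highest CPM in knockout cells among the 6 genes past the 2-fold limit. Each line holds the 250 bases upstream of a transcription start in RefSeq's annotation of GRCm38.p6, written 5′ to 3′ on the gene's own strand. These coordinates belong to another build than those of the counted genes, which are on the C57BL/6NJ assembly. Capitals mark elements found on either strand. The first is GGGCGG, the GC box bound by SP1-like factors. The second was searched as TATANA and is the usual core of a TATA box. The third is the CCAAT box, searched by those letters. *Igf2* has 4 listed starts, of which the most downstream is shown (chr7:142657497-142657746, minus strand), and *Igfbp2* has 2, of which the first is shown (chr1:72824230-72824479, plus strand). The others are *Igfbp3* (chr11:7213924-7214173, minus strand) and *Igfbp4* (chr11:99040994-99041243, plus strand).
Igf2: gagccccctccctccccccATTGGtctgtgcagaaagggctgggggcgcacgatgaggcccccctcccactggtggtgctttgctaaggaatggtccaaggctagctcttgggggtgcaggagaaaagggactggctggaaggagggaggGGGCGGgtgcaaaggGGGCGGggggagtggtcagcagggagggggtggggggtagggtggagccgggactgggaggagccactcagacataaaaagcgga
Igfbp2: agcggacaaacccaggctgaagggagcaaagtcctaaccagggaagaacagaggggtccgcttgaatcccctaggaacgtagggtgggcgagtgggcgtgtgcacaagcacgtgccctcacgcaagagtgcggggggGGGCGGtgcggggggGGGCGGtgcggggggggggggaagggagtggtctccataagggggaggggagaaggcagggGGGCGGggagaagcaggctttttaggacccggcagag
Igfbp3: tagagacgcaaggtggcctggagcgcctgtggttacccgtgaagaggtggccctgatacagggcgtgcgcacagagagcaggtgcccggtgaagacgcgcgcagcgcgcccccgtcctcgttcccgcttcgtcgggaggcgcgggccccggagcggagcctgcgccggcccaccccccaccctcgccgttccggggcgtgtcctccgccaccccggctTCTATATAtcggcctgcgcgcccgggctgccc
Igfbp4: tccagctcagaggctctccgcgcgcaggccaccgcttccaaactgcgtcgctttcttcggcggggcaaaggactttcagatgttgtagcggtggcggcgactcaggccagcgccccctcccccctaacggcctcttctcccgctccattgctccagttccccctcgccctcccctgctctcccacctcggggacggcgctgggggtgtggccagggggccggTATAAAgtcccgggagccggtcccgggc

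The 4 promoters were of different makeup. Those of *Igf2* and *Igfbp2* held 2 and 3 GC boxes and no TATA box in these letters, and that of *Igf2* also held 1 CCAAT box on the opposite strand. Those of *Igfbp3* and *Igfbp4* held TATA boxes (2 overlapping matches and 1) and no GC box. The 14 listed starts of the 10 genes were searched with the first 50 transcribed bases included. Of these, 6 held a GC box, 3 a TATA box and 3 a CCAAT box, where 35.7%, 24.7% and 37.4% of 32851 mouse promoters of the same length did. That set, called all promoters below, leaves out 1 chromosome, which holds none of the 10 genes. The FOXO core TGTTTAC, searched because FOXO factors lie downstream of IGF1R, was in 0 of the 14 and in 3.65% of all promoters. The motif of AP-1 (TGANTCA), which Ang II is known to activate, was in 2 of 14 (one start each of *Igf1* and *Igfbp2*) and in 7.81% of all, and the E-box CACGTG was in 2 of 14 (*Igf2r* and *Igfbp2*) and in 7.15% of all. The median GC content was 64.0% against 52.7% for all promoters. A match of letters is a description and not evidence of a bound factor.

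*Igf2* showed the largest measured change of the family. *Igf2* (MGP_C57BL6NJ_G0033755, chromosome 7 from 153262361 to 153282637, minus strand) encodes the growth factor IGF2, which is abundant in the fetus and is expressed from the paternal allele in most mouse tissues. It had 4, 3 and 2 counts in the control libraries and 1943, 3620 and 2533 in the knockout libraries, or 0.267, 0.165 and 0.151 CPM against 85.3, 180 and 124 CPM. Control cells were thus at or near the floor, and every knockout library lay far above it. From the 9 and 8096 counts summed over each genotype, the scaled ratio was 660 (95% interval 348 to 1444, covering counting error only). The fitted log2 fold change was 9.34 (SE 0.41, adjusted p = 3.52e-08, edgeR's quasi-likelihood test). It ranged from 9.04 to 9.61 with each library left out in turn.

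*Igf1*, which encodes IGF1 (MGP_C57BL6NJ_G0018019, chromosome 10 from 91907890 to 91987972, plus strand), differed far less. Its levels were 19.1, 18.5 and 24.4 CPM in control libraries and 39.1, 36.3 and 32.7 CPM in knockout libraries. All 3 knockout libraries lay above all 3 controls, and the means were 20.7 ± 3.28 and 36.1 ± 3.21 CPM (SD, n = 3 each). The log2 fold change of 0.81 (SE 0.15, adjusted p = 0.00073, edgeR's quasi-likelihood test) was under the limit of 1. It passed that limit with upper-quartile scaling (1.02) and with library totals alone (1.42), where the median of all genes also moved, to 0.33 and 0.73.

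Among the receptors, no gene reached a 2-fold change. *Igf1r*, the signalling receptor (MGP_C57BL6NJ_G0032845, chromosome 7 from 72184994 to 72467942, plus strand), had 73.7, 63.5 and 49.8 CPM in control and 95.8, 104 and 84.1 CPM in knockout libraries. The lowest knockout library lay above the highest control, at means of 62.3 ± 12.0 and 94.7 ± 10.1 CPM (SD, n = 3 each). Its log2 fold change was 0.60 (SE 0.16, adjusted p = 0.00536, edgeR's quasi-likelihood test), and 1.20 with library totals alone.

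*Igf2r*, which encodes the receptor that clears IGF2 and also sorts lysosomal enzymes (MGP_C57BL6NJ_G0023560, chromosome 17 from 10736595 to 10827295, minus strand), was the one gene of the 10 with a negative estimate. It had 781, 739 and 470 CPM in control and 482, 418 and 418 CPM in knockout libraries. Control replicate 3 lay between the knockout libraries, so the groups were not separate (p = 0.2 by exact permutation of the 6 libraries, two-sided). The log2 fold change was -0.59 (SE 0.19, adjusted p = 0.0132, edgeR's quasi-likelihood test), but 0.005 with library totals alone. It missed an adjusted p of 0.05 with upper-quartile scaling (0.0839) and when control replicate 1 (0.0686) or 2 (0.0674) was left out of edgeR's quasi-likelihood test. An unnamed antisense gene that overlaps *Igf2r* over 29558 bases rose, from 37, 50 and 52 counts to 448, 350 and 324 (log2 fold change 2.54, adjusted p = 2.63e-06, edgeR's quasi-likelihood test). The strand setting of the counting is not given in the sources used here, so reads of an overlapping pair may have been shared.

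The ratio of *Igf2r* to *Igf1r*, compared within a library and per kilobase of gene length, does not depend on the scaling between libraries. It was 5.04, 5.53 and 4.49 in control and 2.39, 1.91 and 2.37 in knockout libraries, with no overlap (5.02 ± 0.524 and 2.22 ± 0.273, SD, n = 3 each, exact two-sided permutation test, p = 0.1). That p is the smallest that 3 libraries against 3 allow, and it is the value for every pair of groups of this size that do not overlap. *Insr*, which encodes the related insulin receptor, had 80.1, 78.8 and 69.8 CPM in controls and 66.9, 86.9 and 81.8 CPM in knockouts. Its log2 fold change of 0.04 had a 95% interval of -0.22 to 0.30 (adjusted p = 0.781, edgeR's quasi-likelihood test). Its sign turned when some single libraries were left out. It was 0.25 with upper-quartile scaling and 0.64 with library totals alone (adjusted p = 0.00149, edgeR's quasi-likelihood test). The ratio of *Igf1r* to *Insr* was 1.97, 1.73 and 1.53 in control and 3.07, 2.58 and 2.21 in knockout libraries.

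Among the binding proteins, *Igfbp4* had the widest ratio between genotypes that rests on counts above the floor in both. *Igfbp4* (MGP_C57BL6NJ_G0019474, chromosome 11 from 104812099 to 104826250, plus strand) encodes a binding protein known mainly as an inhibitor of IGF action and as the classic substrate of PAPP-A. It had 39, 54 and 50 counts in control and 6931, 11405 and 10932 counts in knockout libraries, or 2.60, 2.97 and 3.78 CPM against 304, 568 and 536 CPM. All knockout libraries were far above all controls, and knockout replicate 1 was the lowest of them. The means were 3.12 ± 0.606 and 469 ± 144 CPM (SD, n = 3 each), a ratio of 151, and the log2 fold change was 7.24 (SE 0.30, adjusted p = 2.61e-08, edgeR's quasi-likelihood test). Only 2.18% of genes tested had a log2 fold change of 7 or more.

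*Igfbp3* encodes the main carrier of IGFs in blood plasma (MGP_C57BL6NJ_G0018427, chromosome 11 from 4491468 to 4499305, minus strand). It had 12.2, 9.01 and 8.17 CPM in control and 269, 280 and 316 CPM in knockout libraries. The knockout libraries agreed closely, at 288 ± 24.3 CPM against 9.79 ± 2.13 CPM (SD, n = 3 each), a ratio of 29.5. The log2 fold change was 4.88 (SE 0.18, adjusted p = 1.54e-08, edgeR's quasi-likelihood test), the smallest SE among the binding proteins past the threshold. *Igfbp1*, which lies 3539 bases from *Igfbp3* and encodes a binding protein made mainly in liver, had at most 3 counts in any library.

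*Igfbp2* encodes a binding protein that is abundant in fetal tissues and can also bind integrins (MGP_C57BL6NJ_G0016527, chromosome 1 from 76203355 to 76234032, plus strand). It was already well expressed in the controls, at 69.3, 69.6 and 73.8 CPM, and reached 1020, 531 and 325 CPM in the knockouts. The 3 controls were nearly equal, whereas knockout replicate 1 lay far above replicate 3. The means were 70.9 ± 2.51 and 625 ± 357 CPM (SD, n = 3 each), a ratio of 8.82, with a log2 fold change of 3.14 (SE 0.35, adjusted p = 1.59e-05, edgeR's quasi-likelihood test). Without knockout replicate 1 it was 2.60. That library also had the highest summed mesothelial and macrophage markers, and the lowest levels of *Igfbp4*, *Igf2* and the fibroblast markers among the knockouts. The part of these other cells was not tested.

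*Igfbp5* and *Igfbp6* rose from very low levels. *Igfbp5*, the neighbour of *Igfbp2* on chromosome 1 (MGP_C57BL6NJ_G0016528, from 76239470 to 76256429, minus strand), encodes a binding protein that associates with extracellular matrix. It had 0 counts in every control library and 22, 31 and 17 counts in the knockout libraries, or 0.966, 1.54 and 0.834 CPM. Against a floor of 3 counts per library it was at least 5.65-fold higher, and the test gave an adjusted p of 0.000205 (edgeR's quasi-likelihood test). Although 5437 bases apart and read toward each other, *Igfbp2* and *Igfbp5* thus stood at very different levels in the knockouts.

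*Igfbp6* encodes a binding protein with a preference for IGF2 (MGP_C57BL6NJ_G0022815, chromosome 15 from 108176395 to 108181495, plus strand). It had 8, 14 and 15 counts in control and 134, 157 and 78 counts in knockout libraries, or 0.533, 0.769 and 1.14 CPM against 5.88, 7.81 and 3.83 CPM. The lowest knockout library was more than 3 times the highest control. The log2 fold change was 2.85 (SE 0.39, adjusted p = 7.01e-05, edgeR's quasi-likelihood test).

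*Igfbp7* encodes a distant relative of the family with a low affinity for IGFs, a protein of vascular basement membranes (MGP_C57BL6NJ_G0030090, chromosome 5 from 80711395 to 80781504, minus strand). It had 412, 423 and 528 CPM in control and 800, 822 and 680 CPM in knockout libraries. All 3 knockout libraries were above the controls, at 767 ± 76.6 against 454 ± 64.1 CPM (SD, n = 3 each). The log2 fold change of 0.76 (SE 0.14, adjusted p = 0.00063, edgeR's quasi-likelihood test) stayed under 1, and it was 1.37 with library totals alone.

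**Figure D2:**
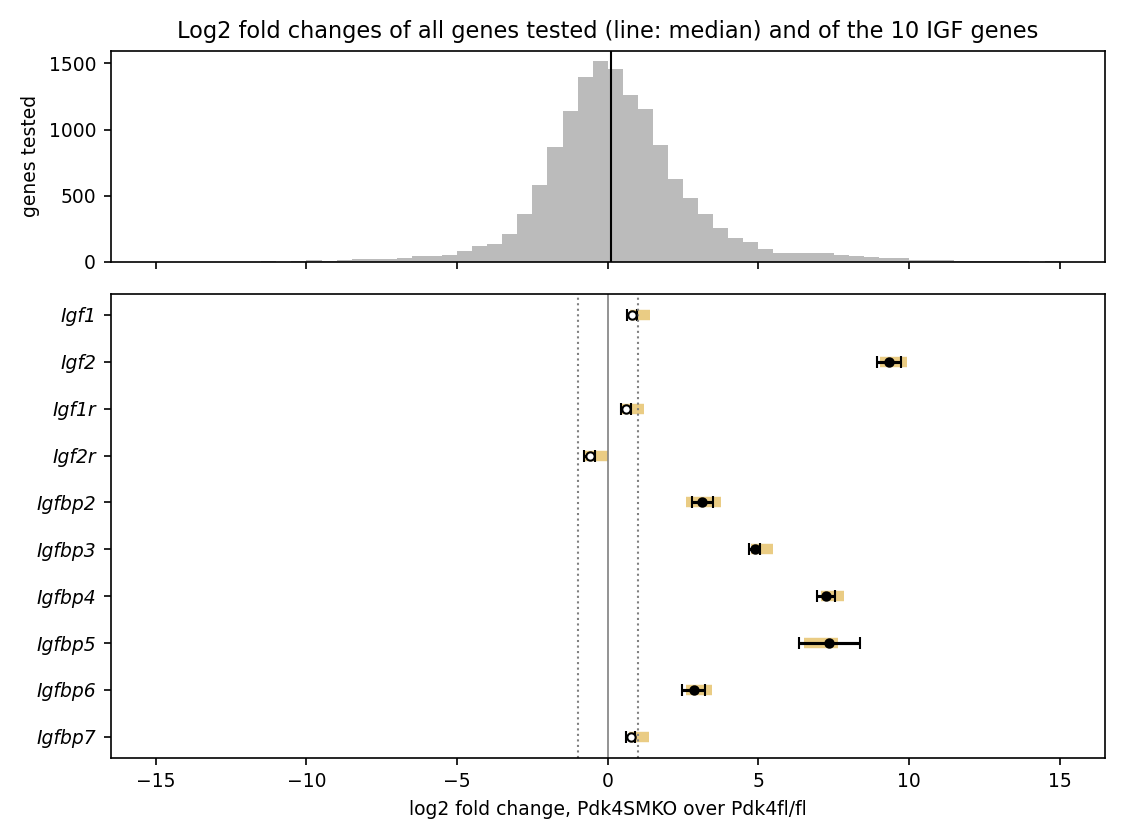
Upper panel, the number of genes tested by log2 fold change of knockout (*Pdk4*SMKO) over control (*Pdk4*fl/fl), with a line at the median of 0.12. Lower panel, the log2 fold change of each IGF gene as a point with its SE (filled where past the threshold) and its lowest and highest value over all fits (yellow bars), where dotted lines stand at -1 and 1. The 6 filled points lie at 2.85 or above and the bar of *Igf2r* reaches 0.005. The value of *Igfbp5* is set against 0 counts and is no measure of its fold.

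The order of the 10 genes by level per kilobase changed between genotypes. In control cells the order of mean CPM per kilobase was *Igfbp7* (376), *Igf2r* (70.3), *Igfbp2* (43.3), *Igf1r* (13.9), *Igfbp3* (3.13), *Igf1* (2.09), *Igfbp6* (0.73), *Igfbp4* (0.706), *Igf2* (0.0339) and *Igfbp5* (0). Here only the neighbours *Igfbp6* and *Igfbp4* overlapped between their libraries. In knockout cells the order was *Igfbp7* (635), *Igfbp2* (382), *Igfbp4* (106), *Igfbp3* (92.1), *Igf2r* (46.5), *Igf2* (22.7), *Igf1r* (21.1), *Igfbp6* (5.25), *Igf1* (3.64) and *Igfbp5* (0.185). The neighbours that overlapped here were *Igfbp7* and *Igfbp2*, *Igfbp4* and *Igfbp3*, *Igf2* and *Igf1r*, and *Igfbp6* and *Igf1*. *Igf2* moved from the ninth to the sixth place, and *Igfbp4* from the eighth to the third.

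The makeup of the binding protein pool changed with it. The 6 transcripts summed to 388, 396 and 486 CPM per kilobase in control and 1445, 1229 and 987 in knockout libraries, a ratio of the means of 2.88. *Igfbp7* made up 87.8%, 88.2% and 89.8% of that sum in controls but 45.8%, 55.3% and 56.97% in knockouts. The share of *Igfbp2* was 10.9%, 10.7% and 9.27% against 43.1%, 26.4% and 20.1%, with the widest SD in percentage points between knockout libraries (11.9). *Igfbp4* went from 0.166% ± 0.0126 to 9.19% ± 3.93 and *Igfbp3* from 0.756% ± 0.235 to 7.82% ± 2.19 (SD, n = 3 each). By raw counts in place of counts per kilobase, the shares were 0.576% and 22.4% for *Igfbp4* and 1.86% and 13.6% for *Igfbp3* in control and knockout cells. None of the shares per kilobase overlapped between the genotypes (exact two-sided permutation test, p = 0.1 each).

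**Figure D3:**
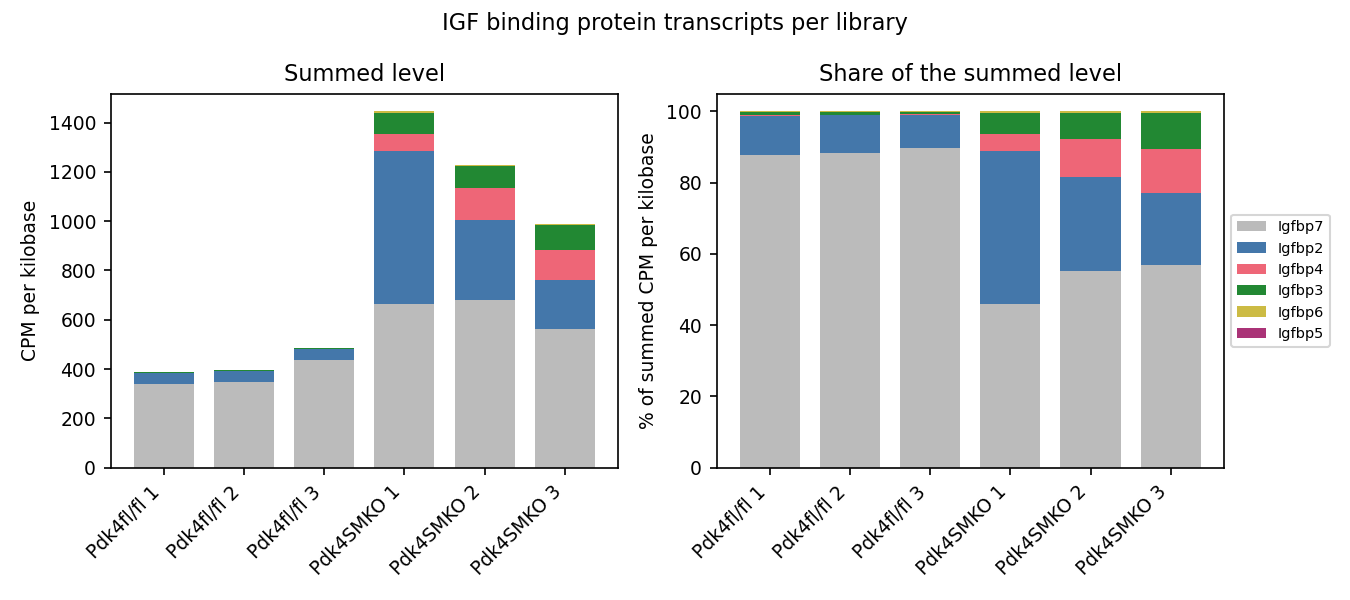
Binding protein transcripts in each library as stacked bars, in CPM per kilobase of gene length (left) and in percent of their sum (right), coloured by gene. The grey *Igfbp7* makes up 87.8% or more of each control bar and at most 56.97% of each knockout bar, where *Igfbp2*, *Igfbp4* and *Igfbp3* fill the rest. *Igfbp5* and *Igfbp6* are too low to be seen in most bars.

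The summed ligand transcripts changed by a larger ratio of means (12.4) than the summed binding proteins (2.88). *Igf1* and *Igf2* together summed to 1.97, 1.90 and 2.50 CPM per kilobase in control and 18.9, 35.1 and 25.0 in knockout libraries. *Igf2* was 1.65% ± 0.661 of this sum in controls and 85.1% ± 5.45 in knockouts (SD, n = 3 each). The summed binding protein level was 197, 209 and 195 times the summed ligand level in controls and 76.6, 35.0 and 39.4 times in knockouts. These are ratios of transcripts and not of proteins. The 10 genes took 0.104% ± 0.0123 of all counts in control and 0.352% ± 0.0391 in knockout libraries (SD, n = 3 each).

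The rest of the pathway was read from 5 lists with 57 genes, of which 56 were found by name and 52 were tested. Past the threshold, 13 of the 52 (25.0%) were higher and 8 (15.4%) were lower in knockout cells, shares below the 32.8% and 26.5% of all genes tested. The median of the 52 was 0.02 on the log2 scale. With library totals alone, 23 were higher and 4 lower. The lists held 5 to 20 tested genes each, and differences between them were not tested.

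Of 7 proteases of binding proteins and their inhibitors, 4 were higher (32.8% of all genes tested) and 0 lower (26.5% of all). Their median log2 fold change was 1.03. *Stc1* and *Stc2* encode stanniocalcins, secreted inhibitors of PAPP-A. *Stc2* had 2, 0 and 0 counts in control and 921, 811 and 940 in knockout libraries, at least 214-fold higher. *Stc1* had 0 counts in all controls and 322, 264 and 202 in knockouts, at least 62.8-fold higher. Both passed the count filter only through the knockout libraries and could be called only as higher. They were past the threshold in all 14 fits that tested them, which their control counts fixed in advance. *Pappa*, which encodes PAPP-A, had 9.73, 8.35 and 6.96 CPM against 14.5, 20.1 and 16.9 CPM, a log2 fold change of 1.03 (adjusted p = 0.00068, edgeR's quasi-likelihood test) that dropped to 0.91 without control replicate 3 and 0.92 without knockout replicate 2. *Adam12*, which encodes a metalloprotease that cleaves binding proteins, rose by 1.18 on the log2 scale (adjusted p = 0.000199, edgeR's quasi-likelihood test). *Pappa*, *Stc1*, *Stc2* and *Igfbp4* were thus higher in the knockout cells, though *Pappa* was named after its values were seen. Of the 3 genes of the list that did not pass, *Pappa2* had a negative log2 fold change (-0.59, adjusted p = 0.167, edgeR's quasi-likelihood test).

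Of 12 tested adaptors and negative regulators of IGF1R, 6 were higher (32.8% of all genes tested) and 1 lower (26.5% of all). Their median log2 fold change was 0.77. *Grb10*, which encodes an adaptor that restrains the insulin and IGF1 receptors and is imprinted in mice, had 0 counts in every control and 2168, 1468 and 1322 in the knockouts, at least 394-fold higher. *Grb10* passed the count filter only through the knockout libraries and could be called only as higher. *Socs3*, a feedback inhibitor of cytokine receptors that also binds IRS proteins, had 28.0, 35.2 and 19.9 CPM against 73.8, 147 and 90.1 CPM (log2 fold change 1.90, adjusted p = 0.000104, edgeR's quasi-likelihood test). *Sos2*, an exchange factor for RAS, had 10.7, 7.47 and 6.28 CPM against 29.3, 32.5 and 33.5 CPM (adjusted p = 8.14e-06, edgeR's quasi-likelihood test).

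The docking proteins *Irs1* and *Irs2* moved in opposite directions. *Irs1* had 8.47, 5.27 and 1.82 CPM in control and 16.3, 19.8 and 17.9 CPM in knockout libraries, with a log2 fold change of 1.78 (adjusted p = 0.00176, edgeR's quasi-likelihood test). *Irs2* had 145, 153 and 59.6 CPM against 46.9, 64.6 and 43.8 CPM, with a log2 fold change of -1.20 (adjusted p = 0.00455, edgeR's quasi-likelihood test). Control replicate 3 lay within the knockout range. The log2 fold change of *Irs2* was -0.98 without control replicate 2, -0.99 with upper-quartile scaling and -0.61 with library totals alone, and so under the limit in these fits.

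In the PI3K-AKT-MTOR-FOXO arm, 3 of 20 genes tested were higher (32.8% of all genes tested) and 4 lower (26.5% of all). Their median log2 fold change was -0.09. *Tsc1*, which encodes a brake on MTOR, had 942, 983 and 811 CPM in control and 40.4, 39.7 and 39.8 CPM in knockout libraries, 22.8-fold lower (log2 fold change -4.51, adjusted p = 9.68e-09, edgeR's quasi-likelihood test). *Rheb*, the GTPase on which that brake acts, was lower as well (-1.80), as were the kinase genes *Pdpk1* (-2.13) and *Akt2* (-1.17, but -0.96 with upper-quartile scaling and -0.56 with library totals alone). Higher were *Pik3r1* (2.13), a regulatory subunit of PI3K, *Mtor* itself (1.19) and *Foxo4* (1.01, and under 1 in 5 of 15 fits). *Akt1* (0.64), *Foxo1* (0.61) and *Foxo3* (-0.39) did not pass. With library totals alone, *Akt1* (1.24) and *Foxo1* (1.21) passed and *Foxo3* was at 0.20. The pattern was mixed, with both activators and a brake of the arm among the lower genes.

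Of 8 genes tested in the RAS-ERK arm, which carries the growth signal of IGF1R through RAS and the MAP kinases, 0 passed the threshold in edgeR's quasi-likelihood test or in DESeq2. At an unadjusted p under 0.05 in edgeR's test, with no limit on the fold change, 1 was higher and 5 were lower. These 6 also had an adjusted p under 0.05, as did 79.1% of all genes tested, so their number does not set the list apart. The median log2 fold change of this list was -0.38. Of 5 tested IGF system genes outside the main 10, 0 were higher (32.8% of all genes tested) and 3 lower (26.5% of all). The lower ones were *Igf2bp2* (-1.61), *Igf2bp3* (-1.06) and *Igfals* (-2.80), the last at 2.13 CPM or less in every library and named after its values were seen. *Igfals* passed the count filter only through the control libraries, so it could be called only as lower. *Igf2bp2* and *Igf2bp3* encode RNA-binding proteins that were found through the *Igf2* transcript. With library totals alone they were at -0.999 and -0.45, and neither passed. *Igf2bp3* also missed the fold threshold without control replicate 2 (-0.99), with upper-quartile factors (-0.85) and with at least 10 counts required in every library (-0.96). Neither had a positive log2 fold change in any fit. *Igf2* itself rose in all 14 fits that tested it, which its 4, 3 and 2 control counts fixed in advance.

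**Figure D4:**
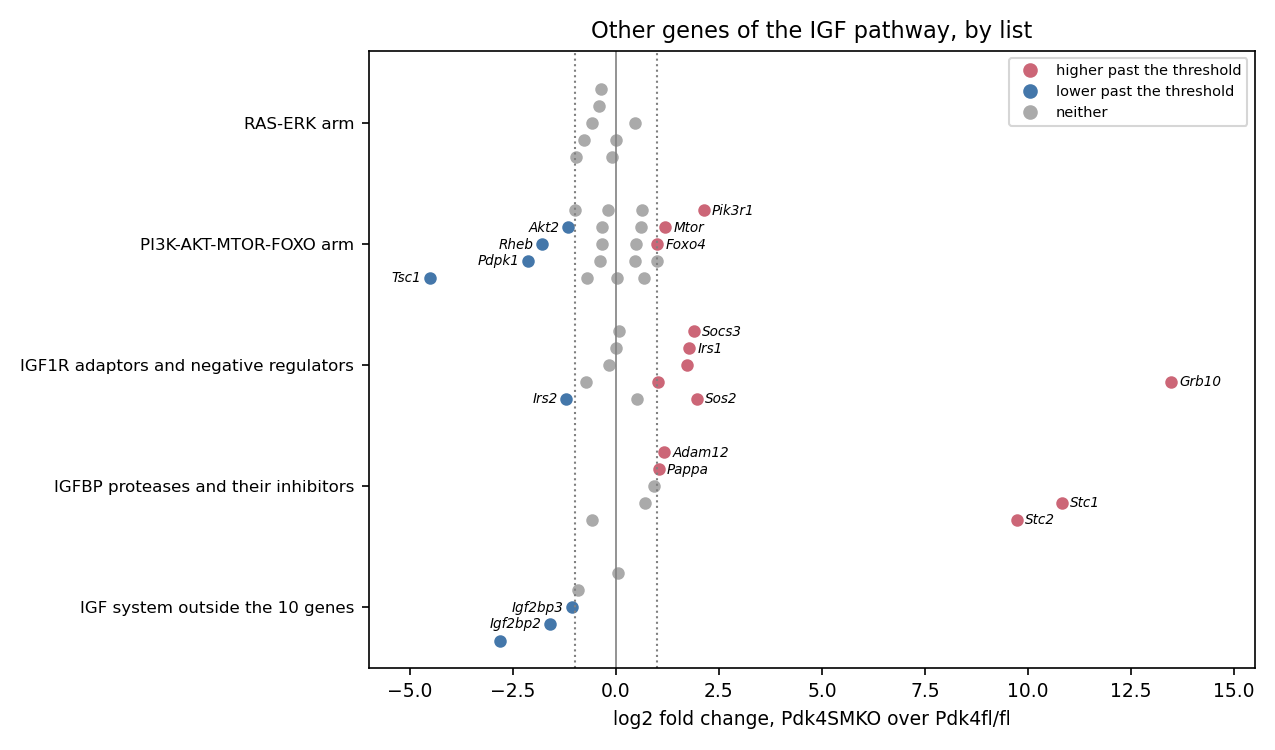
Log2 fold change of knockout (*Pdk4*SMKO) over control (*Pdk4*fl/fl) for the 52 tested genes of the 5 pathway lists, 1 point per gene, red where higher and blue where lower past the threshold, with dotted lines at -1 and 1 and vertical offsets only to separate points. *Grb10*, *Stc1* and *Stc2* lie far right of all others, at values set against 0 to 2 counts that are no measure of their fold, and *Tsc1* lies farthest left at -4.51.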

How the data were processed

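RNA of 6 MASMC libraries was sequenced as paired-end reads. The file deposited by the authors is 1 table of raw counts, the reads assigned to each gene in each library. The methods name the NEBNext Ultra kit and the labels the SMARTER kit. The submitters' processing notes name GRCm39, whereas all but 625 gene identifiers belong to the C57BL/6NJ annotation. The aligner, the counting program and the use of strand are not given in the sources used here. Libraries were grouped by genotype label.

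The analysis used R 4.3.3, limma 3.58.1 and edgeR 4.0.16 (filterByExpr, TMM, quasi-likelihood test on genotype, Benjamini-Hochberg over 14085 genes). A call needed a 2-fold change or more beside an adjusted p under 0.05. The fit was tested on simulated data with 200 changed genes, far fewer than were called here. That test therefore does not cover a table in which most genes change. DESeq2 1.42.0, the tool of the study's methods, was an alternative, beside other scalings, filters and thresholds, protein-coding genes alone, a replicate block and leaving out each library. A count of 3 was the floor. Floors and the interval of the *Igf2* ratio cover counting error only, while the interval of *Insr* was taken from the SE of the fit. Single values were compared by exact two-sided permutation tests. Levels between genes are CPM per kilobase of the table's gene length.

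The genes and lists were chosen with earlier results of these data known. Named were the 10 IGF genes, *Pdk4*, of each pathway list up to 3 genes past the threshold in each direction with the largest change and at least 10 CPM in the higher genotype, and *Igfbp1*, *Insr*, *Irs1*, *Irs2*, *Akt1*, *Akt2*, *Foxo1* and *Foxo3*. *Pappa*, *Pappa2*, *Igfals*, *Irs4*, *Xist*, genes overlapping or next to the 10 and the promoter motifs were chosen after their values were seen. Some pathway genes are not reported here and are in none of the pathway counts. Promoters were matched by symbol in RefSeq's GRCm38.p6 table for all 10 genes.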

Additional observations from a re-analysis of the deposited data

How the results depend on the processing

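The 6 IGF genes past the threshold were also 6 with RLE factors, DESeq2, no filter, protein-coding genes alone, an adjusted p under 0.01 and each library left out in turn (6 to 6), 7 with upper-quartile factors and 9 with library totals alone. They were 3 of 7 tested when at least 10 counts were required in every library, since that filter removes *Igf2*, *Igfbp5* and *Igfbp6*, and 9 with no limit on the fold change, where 1, *Igf2r*, was lower. The lower count was 0 to 0 with each library left out. Of the pathway genes, 13 higher and 8 lower, 23 were higher and 4 lower with library totals alone, 15 and 5 with upper-quartile factors, and 22 and 18 with no limit on the fold change. With each library left out, 10 to 15 were higher and 6 to 10 lower. Log2 fold changes turned sign with library totals alone for *Igf2r* (0.005) and *Foxo3* (0.204). That of *Insr* turned without control replicate 3 (-0.032) or knockout replicate 2 (-0.027). With each library left out *Insr* ranged from -0.032 to 0.156, and it was 0.644 with library totals alone. Library totals alone put the median gene at 0.725, and relative to the median of each fit *Igf2r* stayed between -0.966 and -0.539 in every fit. The cause of these shifts was not tested. By raw counts in place of counts per kilobase, *Igfbp7* was 84.2% and 35.7% of the binding proteins in control and knockout cells, and *Igfbp4* was 22.4% in the latter.

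The labels number the replicates 1 to 3 in both genotypes without saying that a number is shared. Deviations of same-numbered libraries correlated at 0.04, 0.06 and 0.176, so the numbers were not taken as pairs. With the replicate block, 6 IGF genes were higher and 0 lower, 13 and 8 of the pathway genes passed, and 4577 and 3704 of all genes did. Not every library correlated best with its own number.

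Depth limits *Igf2*, *Igfbp5*, *Stc1*, *Stc2* and *Grb10*, whose control libraries held 0 to 4 counts, so that fitted fold changes depend on the prior count. Leaving out 1 library leaves 2 in that genotype.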

Other observations

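Genes that overlap or adjoin the 10 were read as well. *Igf2os*, antisense to *Igf2* over 7130 bases, had 0 counts in the control libraries and 14, 18 and 13 in the knockout libraries (adjusted p = 0.000374, edgeR's quasi-likelihood test), against 1943 to 3620 for *Igf2*. *Ins2*, which lies 15238 bases from *Igf2*, had 0 counts in all 6 libraries. *Tns4*, 11115 bases from *Igfbp4* and on the opposite strand, had 0, 4 and 0 counts in controls and 187, 87 and 107 in knockouts, and passed the threshold (adjusted p = 1.5e-05, edgeR's quasi-likelihood test). *Igf2os* and *Tns4* passed the count filter only through the knockout libraries and could be called only as higher. *Top2a*, on the other side of *Igfbp4* at 20182 bases, had 181, 179 and 140 CPM against 175, 106 and 119 CPM and overlapped between the genotypes. *Spryd3*, 10003 bases from *Igfbp6*, rose from 20.2, 18.3 and 21.3 CPM to 76.7, 84.2 and 78.2 CPM (log2 fold change 2.00, adjusted p = 2.6e-07, edgeR's quasi-likelihood test), while *Soat2*, 1014 bases away on the other side, had at most 7 counts in any library. *Polr2b*, which overlaps *Igfbp7* by 85 bases, had 63.7, 57.3 and 52.4 CPM against 91.4, 107 and 109 CPM, with a log2 fold change of 0.83 under the limit. *Irs4* had 14, 8 and 8 counts in controls and 0 in every knockout library, at least 4.62-fold lower, and was too low to be tested.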
